A study of Mus musculus with 24 samples.

Results

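Endothelin-1, the receptors and enzymes through which it and prostaglandin E2 act, and the enzyme that ends the prostaglandin signal were followed in microdissected kidney tubules over a day. The list named 10 genes, and 8 of them were analysed here with 17 probe sets, out of 18194 genes in all: Edn1, Ednrb, Ptgs2, Ptges, Ptger1, Ptger3, Ptger4 and Hpgd. Ednra and Ptgs1 were not analysed here. Every probe set assigned to 1 of the 8 symbols was taken, and the brightest over all arrays gave the value of each gene.

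The first segment sample joined the distal convoluted tubule with the connecting tubule (DCT/CNT), and the second was the cortical collecting duct (CCD), both microdissected from collagenase-treated left kidneys of male C57BL/6J mice of unstated age. All mice had lived under a cycle of 12 h light and 12 h dark, and tubules were taken at zeitgeber time (ZT, hours after lights on) 0, 4, 8, 12, 16 or 20. Each of the 12 groups, formed by 2 segments and 6 times, held 2 RNA pools, for which the labels state that 5 mice per time gave RNA in equal shares, and each pool was measured on 1 Affymetrix array. Each dissected segment holds several cell types, and the labels do not say whether the pools of a time came from different animals, so p-values measure the spread between pools.

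Endothelin-1, encoded by Edn1, is a peptide made by endothelium and by collecting duct cells, where it acts back on the tubule through the G-protein-coupled receptors ETA (Ednra) and ETB (Ednrb) and restrains sodium and water reabsorption. Prostaglandin E2 is made from arachidonic acid by the cyclooxygenases (Ptgs1, Ptgs2) followed by prostaglandin E synthase (Ptges), and it is sensed by the EP receptors, among them EP1 (Ptger1), EP3 (Ptger3) and EP4 (Ptger4). EP3 lowers cyclic AMP and opposes vasopressin, whereas EP4 raises cyclic AMP, and 15-hydroxyprostaglandin dehydrogenase (Hpgd) oxidises prostaglandin E2 to an inactive form.

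As whole lists, markers of each labelled segment averaged higher on that segment's arrays. The 9 measured DCT and CNT markers averaged 10.99 on the log2 scale in DCT/CNT and 9.05 in CCD, and the 10 principal cell markers averaged 10.61 in DCT/CNT and 11.65 in CCD, with no overlap between the 12 and 12 arrays for either list. Of the DCT and CNT list 8 genes were higher in DCT/CNT and Stk39 was lower, at 10.75 in DCT/CNT and 11.46 in CCD. Slc12a3, the thiazide-sensitive sodium chloride cotransporter, averaged 10.77 in DCT/CNT and 5.28 in CCD. Markers of other cells had values in both segments: the 12 endothelial markers averaged 7.79 in DCT/CNT and 7.61 in CCD, the 12 vascular smooth muscle, mesangial and interstitial markers 6.91 in DCT/CNT and 6.33 in CCD, and the 6 thick ascending limb markers 7.90 in DCT/CNT and 7.06 in CCD. The 95th percentile of 71 olfactory and vomeronasal receptor genes, 5.77 in DCT/CNT and 5.16 in CCD on average, served as a level for dim probe sets. On 11 or more of the 12 arrays of each segment it was exceeded by 11 of the 12 endothelial markers, by 10 of the 12 vascular smooth muscle, mesangial and interstitial markers and by 7 of the 11 leukocyte markers. In each of these lists 1 gene exceeded it on no array, namely Vwf, Cnn1 and Itgam.

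The spread of values also differed between the segments. The interquartile range over all probe sets was 3.32 to 3.65 on DCT/CNT arrays and 4.08 to 4.28 on CCD arrays, and its part in the segment differences was not tested. Quantile normalization gives all arrays the same spread, and the differences after it are given below beside the deposited ones.

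In the segment comparison Ptger3, Edn1 and Ptgs2 were higher in DCT/CNT than in CCD, and Ptger1, Ptger4, Hpgd, Ptges and Ednrb were lower, Ednrb with a direction that turned after quantile normalization. Ptgs2 was dim on every array and did not pass the test after quantile normalization, and Edn1 did not pass it without ZT8. All 8 genes passed the test (3 higher and 5 lower), against 77.4% of all genes (30.4% higher and 47% lower), and 78.6% of all genes had an unadjusted p under 0.05, so that passing it sets no gene apart. For 5 of the 8 genes the 12 DCT/CNT arrays did not overlap the 12 CCD arrays, against 27.8% of all genes: Ptger1, Ptger3, Ptger4, Ptges and Hpgd. The median size of the difference relative to the median gene was 0.73 over the 8 genes and 0.39 over all genes. The median gene itself differed by -0.13 between DCT/CNT and CCD, so each difference is given as DCT/CNT minus CCD and again relative to the median gene. In tubule extracts, fewer cells of a type and less RNA per cell cannot be told apart.

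**Figure D1:**
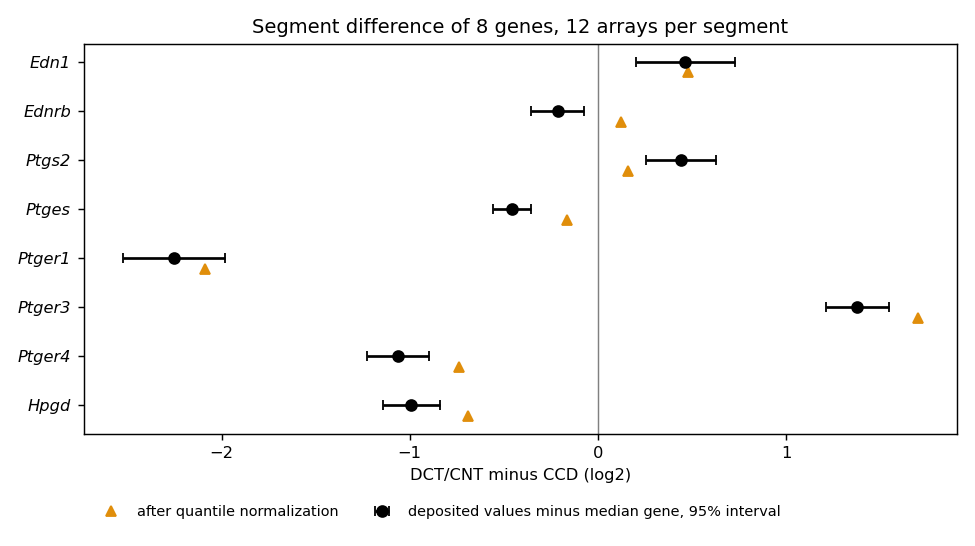
DCT/CNT minus CCD difference of each gene on the log2 scale, relative to the median gene, with its 95% interval (black circles, 12 arrays per segment), and the difference after quantile normalization (orange triangles). The circle of Ptger3 lies farthest to the right at 1.38 and that of Ptger1 farthest to the left at -2.25, and Ednrb is the gene whose triangle falls on the other side of 0.

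Edn1, the endothelin-1 gene (chr13:42301476-42307990, build GRCm38.p6), had values of 6.32 at the lowest, 6.77 at the median and 7.60 at the highest in DCT/CNT, against 6.15, 6.43 and 6.78 in CCD. The ranges overlapped widely, and the highest DCT/CNT pool, at ZT8, had a partner pool of that time at 6.82. Edn1 was higher in DCT/CNT by 0.34 (SE 0.12), or 0.46 relative to the median gene, with an adjusted p of 0.0206, and by 0.48 after quantile normalization. The mean was higher in DCT/CNT at each of the 6 times, by 0.05 at ZT12 to 0.72 at ZT8, and the pools of the segments stood apart at 3 of them. Without ZT8 the difference was 0.26 (adjusted p = 0.0578). The endothelial list averaged 0.19 higher in DCT/CNT, but its genes were split. Of its 12 genes 4 were called higher and 2 lower, Tek (-0.47) and Emcn (-0.35), and the others were not called. The vascular, mesangial and interstitial list averaged 0.58 higher, with 9 of 12 genes called higher and 1 lower, Dcn (-1.08). The part of these lists in the Edn1 difference was not tested.

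Ednrb, which encodes the ETB receptor (chr14:103814615-103844508), ranged from 8.62 to 9.39 in DCT/CNT (median 9.04), against 9.04 to 9.62 in CCD (median 9.33). By the brightest of its 3 probe sets, both DCT/CNT pools lay below both CCD pools at each of the 6 times, although the ranges over the day overlapped. Ednrb was lower in DCT/CNT by the test (-0.34, SE 0.07, adjusted p = 0.000231), and by -0.21 relative to the median gene. That direction turned with scaling, since the difference was 0.12 after quantile normalization (adjusted p = 0.077) and -0.13 with arrays brought to equal medians (adjusted p = 0.069). The receptor is also carried by endothelial cells, whose list is given above.

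Ptgs2, the inducible cyclooxygenase (chr1:150100031-150108234), was dim on every array. Its values were 2.49, 2.87 and 3.52 at the lowest, median and highest in DCT/CNT, against 2.42, 2.61 and 3.07 in CCD. None of the 24 arrays exceeded the olfactory and vomeronasal receptor level. Ptgs2 was higher in DCT/CNT by 0.32 (SE 0.09, adjusted p = 0.00367), or 0.44 relative to the median gene, and the receptor genes differed by a median of 0.34, with 45 of 71 higher and 3 lower. After quantile normalization Ptgs2 differed by 0.16 (adjusted p = 0.121) and the receptor genes by 0.14.

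Ptges, which makes prostaglandin E2 from the cyclooxygenase product (chr2:30889471-30931020), was bright in both segments. It ranged from 10.36 to 10.85 in DCT/CNT (median 10.64) and from 10.97 to 11.42 in CCD (median 11.23). By this brightest probe set every DCT/CNT array lay below every CCD array. Ptges was lower in DCT/CNT by -0.58 (SE 0.05, adjusted p = 1.50e-08), or -0.46 relative to the median gene, a 1.37-fold difference, and the difference at single times ran from -0.68 to -0.51. After quantile normalization it was -0.16 (adjusted p = 0.00469), and with equal medians -0.37. The other 2 Ptges probe sets gave -0.17 and -0.34, or -0.03 and -0.20 relative to the median probe set, so the size differed between probe sets. Each of these 2 had the pools of the segments apart at only 3 of the 6 times. The one at -0.17 was slightly higher in DCT/CNT at ZT16 (0.04) and ZT20 (0.11).

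Taken by the brightest probe sets, Ptger1 gave the widest segment difference of the 8 genes. It encodes EP1, a receptor that raises cell calcium, and lies at chr8:83666644-83672756. Its values were 5.52, 6.70 and 7.32 at the lowest, median and highest in DCT/CNT, against 8.43, 9.07 and 9.41 in CCD. Every CCD array lay above every DCT/CNT array, and 2 of the 12 DCT/CNT arrays, 1 at ZT12 and 1 at ZT20, did not exceed the receptor level for dim probe sets. Ptger1 was lower in DCT/CNT by -2.38 (SE 0.13, adjusted p = 1.89e-10), or -2.25 relative to the median gene, a 4.76-fold difference. The difference ran from -3.21 at ZT20 to -1.51 at ZT8. The difference was -2.09 after quantile normalization. The other Ptger1 probe set gave -1.33, or -1.20 relative to the median probe set, which is smaller than the second probe sets of Ptger4 and Hpgd gave, with the pools of the segments apart at all 6 times.

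Ptger4 encodes EP4, the receptor that raises cyclic AMP, at chr15:5233399-5244187 on the minus strand. The 250 bases before its RefSeq start are shown because Ptger4 and Ptger3 encode receptors with opposite effects on cyclic AMP and differed in opposite directions (chr15:5244188-5244437, GRCm38.p6, minus strand, sequence from RefSeq). Capitals mark the GC box GGGCGG, read on either strand, and the CCAAT box:
Ptger4: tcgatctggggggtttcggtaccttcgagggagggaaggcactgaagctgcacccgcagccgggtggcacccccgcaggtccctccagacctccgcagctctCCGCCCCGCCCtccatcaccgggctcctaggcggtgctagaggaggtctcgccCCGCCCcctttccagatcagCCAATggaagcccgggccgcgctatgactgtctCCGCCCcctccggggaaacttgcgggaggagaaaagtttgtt
The GC boxes begin 148, 143, 95 and 42 bases before the start, the first 2 of them overlapping, and the CCAAT box 75 bases before it. GC boxes stand in 32.7% and CCAAT boxes in 33.8% of 32851 mouse promoters of the same 250 bases, both strands read.

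Ptger4 had values of 7.80, 8.26 and 8.84 at the lowest, median and highest in DCT/CNT, against 9.24, 9.47 and 9.83 in CCD. The segments did not overlap, and the DCT/CNT pools of a time differed from each other more than most CCD pools did, with a median SD between pools of 0.27 in DCT/CNT and 0.0643 in CCD. Ptger4 was lower in DCT/CNT by -1.19 (SE 0.08, adjusted p = 1.46e-09), or -1.06 relative to the median gene, a 2.09-fold difference. After quantile normalization it was -0.74. The other probe set gave -1.53, or -1.40 relative to the median probe set.

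Ptger3 went the other way. It encodes EP3, which lowers cyclic AMP, at chr3:157566821-157644758 on the plus strand. The sequence before its annotated span, set beside that of Ptger4, is chr3:157566626-157566820 (GRCm38.p6, plus strand, from RefSeq), with the GC box in capitals:
Ptger3: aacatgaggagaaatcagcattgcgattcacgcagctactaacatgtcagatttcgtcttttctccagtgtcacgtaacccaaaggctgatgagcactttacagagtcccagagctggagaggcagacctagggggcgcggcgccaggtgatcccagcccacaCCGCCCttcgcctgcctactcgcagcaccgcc
GC boxes begin 87, 60 and 15 bases before the RefSeq transcript start, and only the one at 87 lies whole in the printed stretch, which ends where the gene's span begins.

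Ptger3 ranged from 9.93 to 10.63 in DCT/CNT (median 10.31), against 8.36 to 9.49 in CCD (median 9.09). All DCT/CNT arrays lay above all CCD arrays. Ptger3 was higher in DCT/CNT by 1.25 (SE 0.08, adjusted p = 1.06e-09), or 1.38 relative to the median gene, a 2.60-fold difference, and it stayed between 1.13 and 1.43 at the 6 times. After quantile normalization it was 1.70. The second probe set gave 0.93, or 1.06 relative to the median probe set. The thick ascending limb list was 0.84 higher in DCT/CNT, with ranges from 6.68 to 8.58 in DCT/CNT and from 5.81 to 8.001 in CCD that overlapped, and the DCT and CNT list was 1.94 higher without overlap. Of the 6 thick ascending limb genes 4 were called higher and 1 lower. The part of either list in the Ptger3 difference was not tested.

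Hpgd, the enzyme that inactivates prostaglandin E2, lies at chr8:56294552-56321046 on the plus strand. The 250 bases before its start are shown because Hpgd was the gene called for a daily rhythm (chr8:56294302-56294551, GRCm38.p6, plus strand, from RefSeq), with the GC box in capitals:
Hpgd: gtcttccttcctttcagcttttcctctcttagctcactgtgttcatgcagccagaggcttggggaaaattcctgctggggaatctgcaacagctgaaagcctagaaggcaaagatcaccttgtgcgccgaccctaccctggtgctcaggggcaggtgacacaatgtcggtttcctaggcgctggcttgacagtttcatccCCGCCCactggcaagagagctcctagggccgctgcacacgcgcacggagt
The GC box begins 50 bases before the start. None of 4 motifs tied to clock or steroid receptor factors was found in this window: the E-box CACGTG (in 6.02% of the 32851 promoters), the D-box TTATGTAA (0.819%), AGGTCA, the core of ROR and REV-ERB sites (14.0%), and AGAACA, an arm of steroid receptor sites (16.1%), both strands read. The same 4 were not found in the windows of Ptger3, Ptger4 and Edn1, which says only that these letters are not in those stretches. AGAACA, read on either strand, stands in the windows of Ednrb, Ptges and Ptgs1, beginning 115, 191 and 204 bases before the start. Each of those windows lies wholly inside the annotated span of its gene.

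Hpgd values were 7.56, 7.88 and 8.21 at the lowest, median and highest in DCT/CNT, against 8.58, 8.99 and 9.41 in CCD. The segments did not overlap at any time. Hpgd was lower in DCT/CNT by -1.12 (SE 0.07, adjusted p = 1.16e-09), or -0.99 relative to the median gene, a 1.99-fold difference, and by -0.69 after quantile normalization. At single times the difference ran from -1.52 at ZT16 to -0.75 at ZT8, and the second probe set gave -1.37, or -1.24 relative to the median probe set. For Ptger1, Ptger4, Ptges and Hpgd alike, the principal cell list was -1.04 lower in DCT/CNT (all 10 of its genes called) and the intercalated cell list -0.46 (7 of 9 called lower, 1 higher). The part of these lists was not tested.

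The daily course was fitted with a 24 h cosine and sine in each segment, where the amplitude is how far the fitted peak stands above the fitted mean. In DCT/CNT none of the 8 genes was called rhythmic by limma's moderated F test with Benjamini-Hochberg adjustment, against 6.57% of all genes, although 6 had an unadjusted p under 0.05, against 24.5% of all genes. In CCD 1 gene, Hpgd, was called, against 2.47% of all genes, and 3 had an unadjusted p under 0.05, against 14.2%. The median amplitude of the 8 genes was 0.21 in DCT/CNT and 0.20 in CCD, against 0.13 and 0.10 over all genes. No gene of the 8 was called for a rhythm difference between the segments, against 0.011% of all genes. The unadjusted p was under 0.05 for Ptger1 and Hpgd (adjusted p = 0.469 and 0.432), against 8.89% of all genes.

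**Figure D2:**
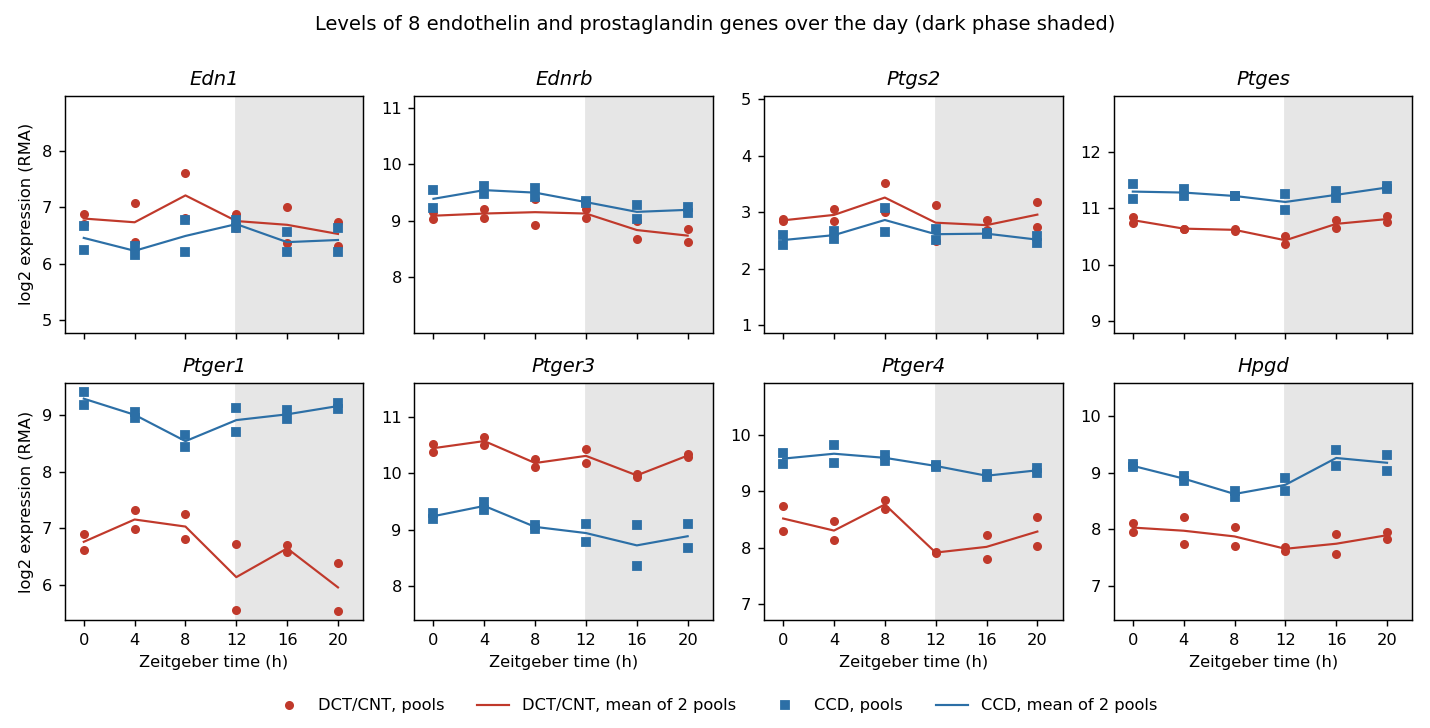
Log2 expression of the brightest probe set of each gene at 6 zeitgeber times in DCT/CNT (red circles) and CCD (blue squares), with each pool as a point, the mean of 2 pools as a line and the dark phase shaded. The vertical axes cover the same span but different levels. The pools of the segments stand apart at all 6 times for Ednrb, Ptger1, Ptger3, Ptger4, Ptges and Hpgd, and CCD Hpgd is lowest at ZT8.

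Hpgd in CCD pools was 9.15 and 9.10 at ZT0, 8.85 and 8.94 at ZT4, 8.58 and 8.67 at ZT8, 8.90 and 8.67 at ZT12, 9.11 and 9.41 at ZT16, and 9.32 and 9.03 at ZT20. Both pools of ZT8, in the light phase, lay at the bottom of the day, level with 1 pool of ZT12, and the highest pools came at ZT16 and ZT20 in the dark. The fitted amplitude was 0.30 (SE 0.07), a 1.52-fold swing from trough to peak, with the peak at ZT 19.9 (adjusted p = 0.0362). The second Hpgd probe set had an amplitude of 0.28 with the peak at ZT 19.6 (adjusted p = 0.0331 in the fit over all probe sets). In DCT/CNT the Hpgd pools lay between 7.56, at ZT16, and 8.21, at ZT4, with no time clear of the others. There the amplitude was 0.18 with the fitted peak at ZT 1.32, which did not pass the test (adjusted p = 0.185).

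The CCD call of Hpgd was close to the threshold. It was lost when any of the 6 times was left out (adjusted p from 0.0568 to 0.332). Of the 24 omissions of 1 array, 10 lost it, all among the 12 that left out a CCD array. Their adjusted p ran from 0.0524 to 0.124, the highest without the first ZT8 pool. The principal cell list in CCD was also lowest at ZT8 (11.52) and highest at ZT20 (11.76), and its part in the course of Hpgd was not tested. The 3 genes whose courses were most like that of Hpgd over the 12 group means, after each segment's mean was taken off, were Zfand6 (r = 0.95), Prpf31 (0.93) and Prdm16os (0.92).

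**Figure D3:**
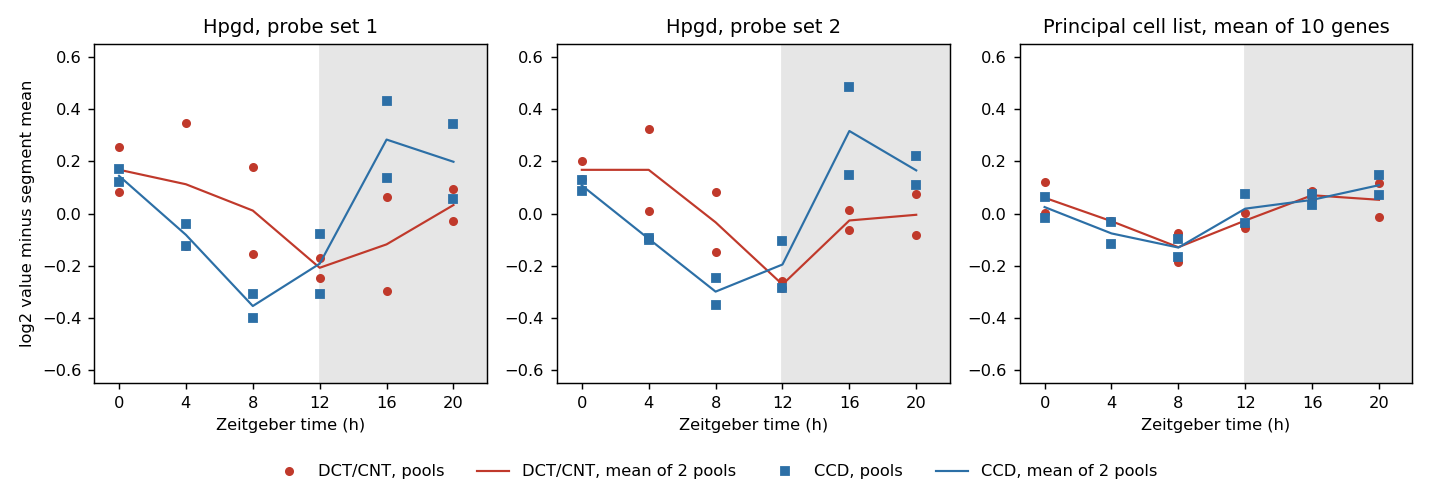
Log2 values of both Hpgd probe sets and of the mean of 10 principal cell genes, each minus its segment mean, by zeitgeber time in DCT/CNT (red circles) and CCD (blue squares), with pools as points and the mean of 2 pools as lines. Both Hpgd probe sets reach their lowest CCD mean at ZT8 and their highest at ZT16, and the principal cell list, on the same axis, moves less.

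Among the receptors, Ptger1 had an amplitude of 0.47 (SE 0.14) in DCT/CNT with a fitted peak at ZT 5.07, and of 0.29 in CCD at ZT 21.4 (adjusted p = 0.0971 and 0.557). Its DCT/CNT pools were 5.55 and 6.71 at ZT12 and 5.52 and 6.37 at ZT20, with an SD between pools of up to 0.819. At ZT12 the low mean rested on 1 pool, whereas both ZT20 pools lay below all pools of ZT0, ZT4, ZT8 and ZT16. Without ZT16 the DCT/CNT amplitude was 0.79 (adjusted p = 0.0277), and without the first DCT/CNT pool of ZT12 it was 0.47 (adjusted p = 0.0325). The other Ptger1 probe set had a DCT/CNT amplitude of 0.14 (adjusted p = 0.64).

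Ptger3 peaked at ZT 2.61 in DCT/CNT and at ZT 3.53 in CCD in the fit, with amplitudes of 0.22 and 0.31 that did not pass the test (adjusted p = 0.175 and 0.0774). In CCD its lowest pool was 8.36 at ZT16, where the partner pool was 9.09, and without that partner pool the amplitude was 0.39 (adjusted p = 0.0291). Ptger4 had fitted peaks at ZT 3.51 in DCT/CNT and ZT 4.53 in CCD, with amplitudes of 0.28 and 0.19 (adjusted p = 0.131 and 0.544). The dimmer Ptger4 probe set had a DCT/CNT amplitude of 0.59 with the peak at ZT 2.38 (adjusted p = 0.0106 over all probe sets), but it exceeded the dim receptor level on only 7 of the 12 DCT/CNT arrays.

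Ednrb had fitted peaks in the light phase in both segments, at ZT 6.62 in DCT/CNT and ZT 5.38 in CCD, with amplitudes of 0.21 and 0.20 (adjusted p = 0.0863 and 0.177). The third Ednrb probe set was called in CCD, with an amplitude of 0.35 and the peak at ZT 2.72 (adjusted p = 0.0338 over all probe sets). The second was not called, with amplitudes of 0.08 in DCT/CNT and 0.15 in CCD (adjusted p = 0.757 and 0.586). Ptges had a DCT/CNT amplitude of 0.16 with a fitted peak at ZT 21.99 and a CCD amplitude of 0.10 at ZT 22.8 (adjusted p = 0.0789 and 0.511), with the lowest mean of both segments at ZT12, the start of the dark phase. Its second probe set was called in DCT/CNT, with an amplitude of 0.32 and the peak at ZT 18.5 (adjusted p = 0.00505), and the third was not, with 0.29 (adjusted p = 0.167). Edn1 and Ptgs2 had adjusted p-values of 0.391 and 0.51 in DCT/CNT and of 0.88 and 0.733 in CCD.

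**Figure D4:**
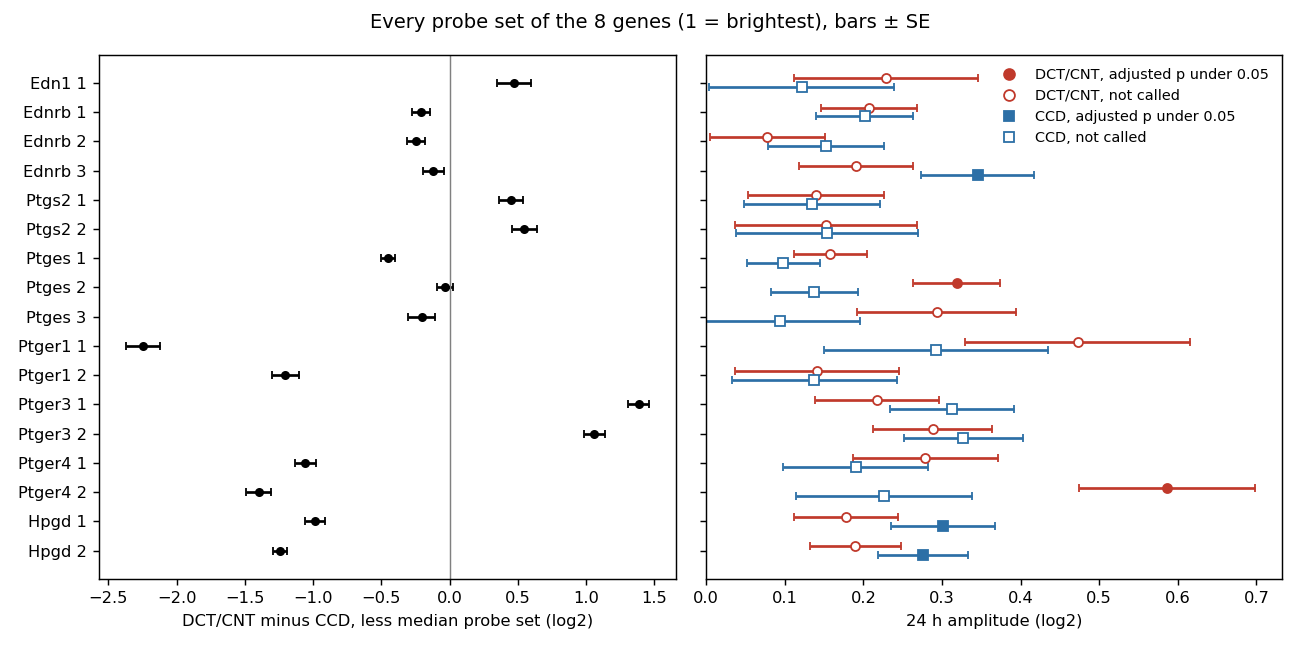
All 17 probe sets of the 8 genes, numbered from the brightest within a gene. The left panel shows DCT/CNT minus CCD relative to the median probe set, and the right panel the 24 h amplitude in DCT/CNT (red circles) and CCD (blue squares), all on the log2 scale with bars of 1 SE and filled symbols for adjusted p under 0.05. Probe sets of a gene share the sign of the segment difference, while the filled amplitudes are Ednrb 3, Hpgd 1 and Hpgd 2 in CCD and Ptges 2 and Ptger4 2 in DCT/CNT.

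Of 48 other genes of the endothelin and prostaglandin pathways, 44 were analysed. In the segment comparison 19 were higher in DCT/CNT and 20 lower, against 30.4% and 47% of all genes, and 5 did not pass the test. The groups differed in brightness: 15 of the 19 higher genes failed to exceed the dim receptor level on some arrays of both segments, and none of the 20 lower ones did. The receptor genes themselves were higher in DCT/CNT by a median of 0.34. After quantile normalization 19 were higher and 14 lower, and with equal medians 24 and 19. Under quantile normalization 5 called genes turned sign, Cbr1 and Ptgr2 among them with a call the other way.

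By role, the counts are to be read against the same 30.4% and 47%. Of 7 phospholipases A2, which free arachidonic acid, 4 were higher, all of them dim, 1 was lower and 2 were not called. Pla2g4a, the cytosolic enzyme, ranged from 7.99 to 8.53 in DCT/CNT and from 9.15 to 9.53 in CCD and was lower by -0.97 relative to the median gene (adjusted p = 1.96e-11), and by -0.65 after quantile normalization. Of 6 prostanoid synthases, 3 were higher, 2 of them dim, 1 was lower and 2 were not called. Among 6 genes of transport and breakdown, 5 were lower and 1 higher. Ptgr1, a prostaglandin reductase that acts after Hpgd, ranged from 6.61 to 7.44 in DCT/CNT and from 8.64 to 9.04 in CCD, lower by -1.59 relative to the median gene (adjusted p = 7.80e-11), and by -1.33 after quantile normalization.

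Of 6 endothelin ligands and proteases, 4 were lower and 2, both dim, were higher. Ece1, which cuts the endothelin precursor, was lower by -0.59, and Mme, the neutral endopeptidase, by -0.69, both relative to the median gene (adjusted p = 2.72e-09 and 1.43e-09). After quantile normalization these were -0.27 and -0.34. Of 6 other prostanoid receptors, Ptgfr, the prostaglandin F receptor, was lower by -0.54 (adjusted p = 6.54e-10), or -0.20 after quantile normalization, 4 were higher, 3 of them dim, and 1 did not pass. Among 13 downstream genes and regulators, 5 were higher, 3 of them dim and the others Rgs2 (0.41 relative to the median gene) and Plcb2 (0.39). The other 8 were lower, with Anxa1, an inhibitor of phospholipase A2, at -2.91 (adjusted p = 1.42e-12), Arrb1, a beta-arrestin, at -1.17 (7.91e-11) and Gna11, a Gq-family subunit, at -0.66 (1.79e-09). Anxa1 ranged from 6.42 to 7.72 in DCT/CNT and from 10.05 to 10.47 in CCD, the widest difference among the 44 genes. After quantile normalization Anxa1 was at -2.65, Arrb1 at -0.84 and Gna11 at -0.38.

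**Figure D5:**
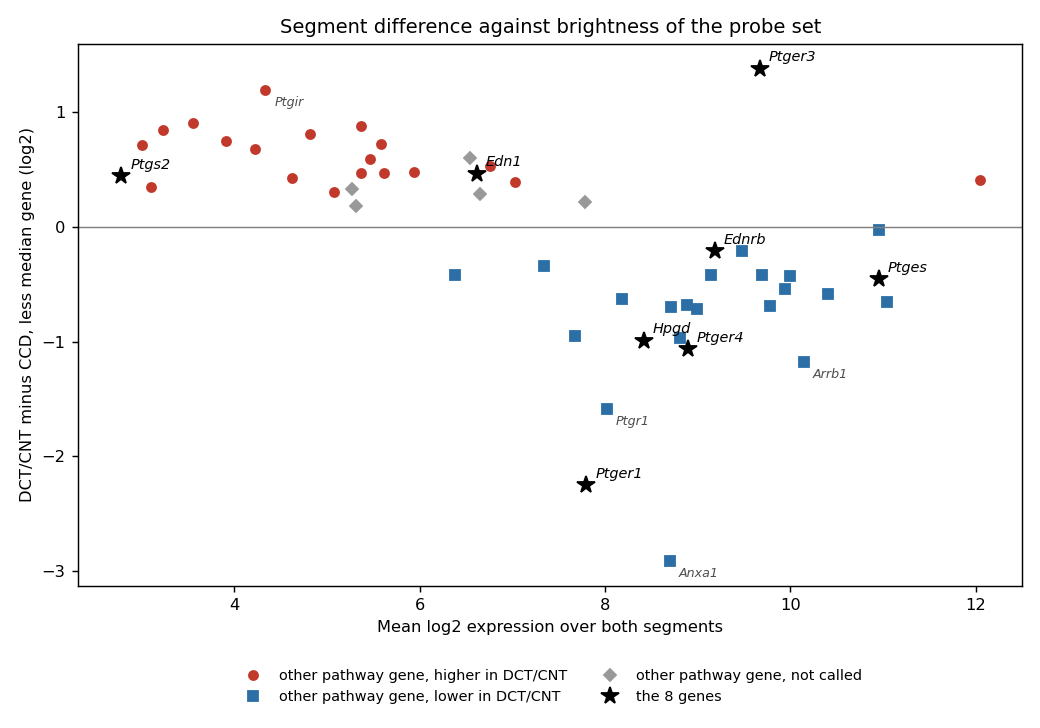
DCT/CNT minus CCD difference relative to the median gene (log2) against mean log2 expression over both segments, for the 8 genes (black stars) and 44 other pathway genes, which are red circles where higher in DCT/CNT, blue squares where lower and grey diamonds where not called. Most red circles lie below a mean of 6, where dim probe sets sit, and Ptger3 stands apart as a bright gene at 1.38.

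Over the day, 5 of the 44 pathway genes were called rhythmic in DCT/CNT, against 6.57% of all genes. There 11 had an unadjusted p under 0.05, against 24.5% of all genes. In CCD none was called, against 2.47%, and 6 had an unadjusted p under 0.05, against 14.2% of all genes. Arrb2, a beta-arrestin, had an amplitude of 0.37 with the peak at ZT 7.14 (adjusted p = 0.00278), and Ptgr2, a prostaglandin reductase, 0.23 at ZT 19.0 (adjusted p = 0.00239). These calls held in all 24 omissions of 1 array and in 5 of 6 omissions of a time. Only the 12 DCT/CNT arrays enter the DCT/CNT course, so omitting a CCD array changes just the shared variance and the adjustment. At ZT8 the DCT/CNT mean of Arrb2 was highest (8.97) and that of Ptgr2 lowest (10.58). Marker lists in DCT/CNT also had extremes at ZT8. The DCT and CNT list (10.39) and the principal cell list (10.48) were lowest there, and the intercalated cell list (11.73) was highest. The part of these lists in the DCT/CNT rhythm calls was not tested. Prxl2b, which makes prostaglandin F, had 0.33 at ZT 11.1, Slco2a1, the prostaglandin uptake transporter, 0.29 at ZT 17.2 and Rgs2, a brake on Gq signalling, 0.20 at ZT 8.53 (adjusted p = 0.032, 0.0456 and 0.0389). Those 3 calls were lost in 4, 6 and 5 of the 6 time omissions and in 6, 19 and 9 of the 24 array omissions. Slco2a1 was also dim, and exceeded the dim receptor level on only 9 of the 12 arrays of each segment. No pathway gene was called for a rhythm difference, with 7 at an unadjusted p under 0.05, against 8.89% of all genes.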

How the data were processed

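RNA of microdissected tubules was amplified and hybridised to 24 Affymetrix arrays, 1 pool each. The authors' deposited table holds log2 values for 45101 probe sets, made with RMA per the submitters' processing notes; whether both segments were normalised in 1 run is not given in the sources used here. Probe sets were named through the platform's annotation: 34958 carried 1 gene symbol, 932 several and 9211 none, and 34754 of the first matched the reference gene table (GRCm38.p6) by gene number. Each of the 18194 genes was represented by its brightest probe set, dim genes were kept, and no batch term was used because the labels name no batch. Precision is limited by the 2 pools per group and by the 5 mice per time, and the labels do not say whether the pools share these mice.

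limma 3.58.1 in R 4.3.3 was run on all genes. A separate mean, cosine and sine of 24 h was fitted per segment (18 residual degrees of freedom), and rhythm was tested with moderated F tests on these terms or on their differences between segments. The segment difference was the mean of 6 DCT/CNT group means minus that of 6 CCD group means. P-values were adjusted with Benjamini-Hochberg over all genes and called under 0.05. SE is that of limma's fit. All p-values measure the spread between pools, which may be technical. The fits were tested on simulated data.

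The members, the lists of other pathway genes and cell type markers and the tests were chosen with earlier results of these data known. Named were all members, up to 8 called pathway genes per test by smallest adjusted p, and the 3 genes most like a member called rhythmic. The cell type lists cover endothelial, vascular smooth muscle with mesangial and interstitial, leukocyte, thick ascending limb, proximal tubule, DCT and CNT, principal and intercalated cells. The leukocyte list averaged 6.89 in DCT/CNT and 6.62 in CCD, the proximal tubule list 7.44 in DCT/CNT and 7.63 in CCD, and the intercalated cell list 11.55 in DCT/CNT and 12.01 in CCD.

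Alternatives were equal array medians, quantile normalization, a filter on dim genes, other probe sets, array weights, a trended robust variance prior, a test over group means, 1 segment fitted alone, a cosine and sine model for the segment difference, a pool-number block, and omission of each array and each time. The main fits carry no block, since the labels do not say whether same-numbered pools share animals. The deviations of same-numbered pools from the group means had correlations between -0.03 and 0.09 at the 6 times. Over all 66 pairs of groups these ran from -0.21 to 0.17. With 2 pools per group such correlations cannot decide whether pools are paired. Single marker lists could still deviate together. The thick ascending limb list differed in the same direction between the pools of ZT16 in both segments, and in opposite directions at ZT4. Promoter sequences came from RefSeq, and 9 of the 10 genes had an entry; the 250 bases before each start were searched on both strands.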

Additional observations from a re-analysis of the deposited data

How the results depend on the processing

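Over single genes and all alternatives, 1264 results kept their direction and side of the threshold, 20 lost the call, 15 gained it and 1 reversed: the Ednrb segment difference, 0.12 after quantile normalization. In DCT/CNT the number of the 8 genes called rhythmic was 0, and 1 with the filter on dim genes (Ptges), 2 with second-brightest probe sets (Ptger4 and Ptges), 1 with a trended robust prior (Ptges), 1 without ZT4 (Ptger4), 1 without ZT16 (Ptger1) and 0 to 1 with 1 array left out. In CCD it was 1, and 2 with the filter on dim genes, second-brightest probe sets, array weights or a trended robust prior (Ptger3 and Hpgd each time), 2 with third-brightest probe sets (Ednrb and Hpgd), 0 in the F test over group means, 0 without ZT0, 0 without ZT4, 0 without ZT8, 0 without ZT12, 0 without ZT16, 0 without ZT20 and 0 to 1 with 1 array left out. The cause was not tested; a filter on dim genes tests fewer genes, and an omission uses fewer samples. In the segment comparison 8 genes were called, 7 with equal medians (without Ednrb), 6 after quantile normalization (without Ednrb and Ptgs2), 7 without ZT8 (without Edn1) and 7 with the filter on dim genes, which removes Ptgs2.

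Counts over all genes moved by over 1.5 times in some fits. In DCT/CNT 1195 genes were called, and 788 with array weights, 450 by the F test over group means, 226 in the segment alone and 565 to 788 with a time left out. In CCD 449 were called, and 846 with array weights, 117 by the F test over group means, 702 with the trended robust prior, 132 to 255 with a time left out and 242 to 477 with an array left out. The rhythm difference gave 2 genes, and 1 to 5 over the alternatives. The segment comparison called 14075 genes, 9088 of the 11159 that passed the filter on dim genes and 25864 of all 34958 probe sets. Scaling moved its split: 5522 higher and 8553 lower as deposited, 7966 and 6044 with equal medians, and 6013 and 5750 after quantile normalization.

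With pool number as a replicate block, 0, 1 and 0 of the 8 genes were called in the rhythm tests of DCT/CNT, CCD and their difference and 8 in the segment comparison, with 1139, 403, 3 and 14071 genes in all. Pairing same-numbered pools within a time called 8 of the 8 genes and 13976 in all. No call of the 8 genes changed with either block. Depth does not apply to arrays; Ptgs2 never exceeded the level of dim probe sets, which limits what its values show.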

Other observations

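Arrb2, a beta-arrestin that ends signalling of G-protein-coupled receptors, had the smallest unadjusted p among the pathway genes for a rhythm difference between the segments (2.42e-05, adjusted p = 0.0879), which did not pass the test. In DCT/CNT its means were 8.46, 8.58, 8.97, 8.58, 8.16 and 8.15 at ZT0 to ZT20, highest in the light phase at ZT8. The fitted peak lay at ZT 7.14 with an amplitude of 0.37 in DCT/CNT and at ZT 16.5 with an amplitude of 0.18 in CCD, where it did not pass the test (adjusted p = 0.262). Arrb2 was picked for this comparison after its values were seen. The marker lists of DCT/CNT at ZT8 are given above, and their part in the Arrb2 course was not tested.

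The thick ascending limb markers differed between the 2 pools of ZT16 in both segments, at 6.68 and 8.45 in DCT/CNT and at 5.81 and 8.001 in CCD. The lowest CCD value of Ptger3, 8.36, came from a ZT16 pool, and the second ZT16 pool stood at 9.09. In DCT/CNT, by contrast, the ZT16 pools of Ptger3 lay close together, at 9.93 and 9.99. These values were noticed in the data and their relation was not tested.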
